A study of Zea mays with 7 samples.

Results

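Of the 17170 H3K9ac-enriched regions listed for V2-IST, the inner stem tissue of young maize seedlings, 344 (2.00%, 95% Wilson interval 1.80 to 2.22%) lay in groups of 2 or 3 within the same husk region. They were chosen by measured coordinates alone: a V2-IST region was taken as fused when it shared at least 1 bp with a husk region that itself shared at least 1 bp with 2 or more V2-IST regions. The husk side of these sites consisted of 170 of 28004 husk regions (0.607%), called fusing husk regions here, of which 166 joined 2 V2-IST regions and 4 joined 3. They are set beside 15878 one-to-one sites, at which a V2-IST region and a husk region overlapped each other and nothing else.

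The lists come from ChIP-seq on the maize inbred line B73 with an antibody against acetylated lysine 9 of histone H3 (ab10812), grown in a greenhouse. V2-IST is the inner stem of seedlings at stage V2 after the outer leaves, their sheaths and the exposed blades had been taken off, and husk is the soft inner leaves around ears whose silks were emerging, before pollination. V2-IST had 2 ChIP replicates and husk had 3, each made from pooled ChIP samples, and the sample labels give 1 input chromatin sample per tissue as control. Both tissues are mixtures of cell types, so a mark carried by few cells and a weak mark carried by all cells cannot be told apart.

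H3K9ac is placed on nucleosomes by histone acetyltransferases and removed by deacetylases, and it is typical of active chromatin. In plants it peaks just downstream of the start of transcribed genes and also marks enhancers, the stretches of DNA that raise the transcription of a gene from a distance. A called region is a stretch in which ChIP reads exceed the input control, so its ends depend on the height of the signal and on the depth as well as on the spread of the mark.

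Each tissue has 1 list that already combines its replicates and gives only the chromosome, start and end of a region on AGPv4 (B73 RefGen_v4). The depth behind a region cannot be read from these lists, no spread between replicates can be given, and no difference between tissues was tested. The intervals below are 95% intervals (Wilson for shares, order statistics for medians) that cover counting over regions only. Regions are not replicates of a tissue. All lengths, gaps and overlaps come from the coordinates that chose the members and are given as a description. The number of replicates combined differs between the tissues and the lists do not carry the depth of the libraries, and the part of either in the fusion was not tested.

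At fused sites, the husk list held a single unbroken region across stretches that were not called in V2-IST. The 170 fusing husk regions covered 655602 bp, of which 40.41% was also in a V2-IST region, 38.01% (249183 bp) lay in the gaps between fused V2-IST neighbours, and 21.58% (141464 bp) lay outward of the outermost V2-IST region. The filled gaps thus made up more of the added length than the outward extensions did. This is tied to the rule, because every fused site has a gap, and no V2-IST gap was under 534 bp. An outward extension can be absent. The gaps exceeded the outward extensions in 129 of 170 fusing husk regions (75.9%, 68.9 to 81.7%), and the median share of the added length that lay in gaps was 73.15%. These sites are a small part of either list, with 1.81% of all husk bp and 2.18% of all V2-IST bp.

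**Figure D1:**
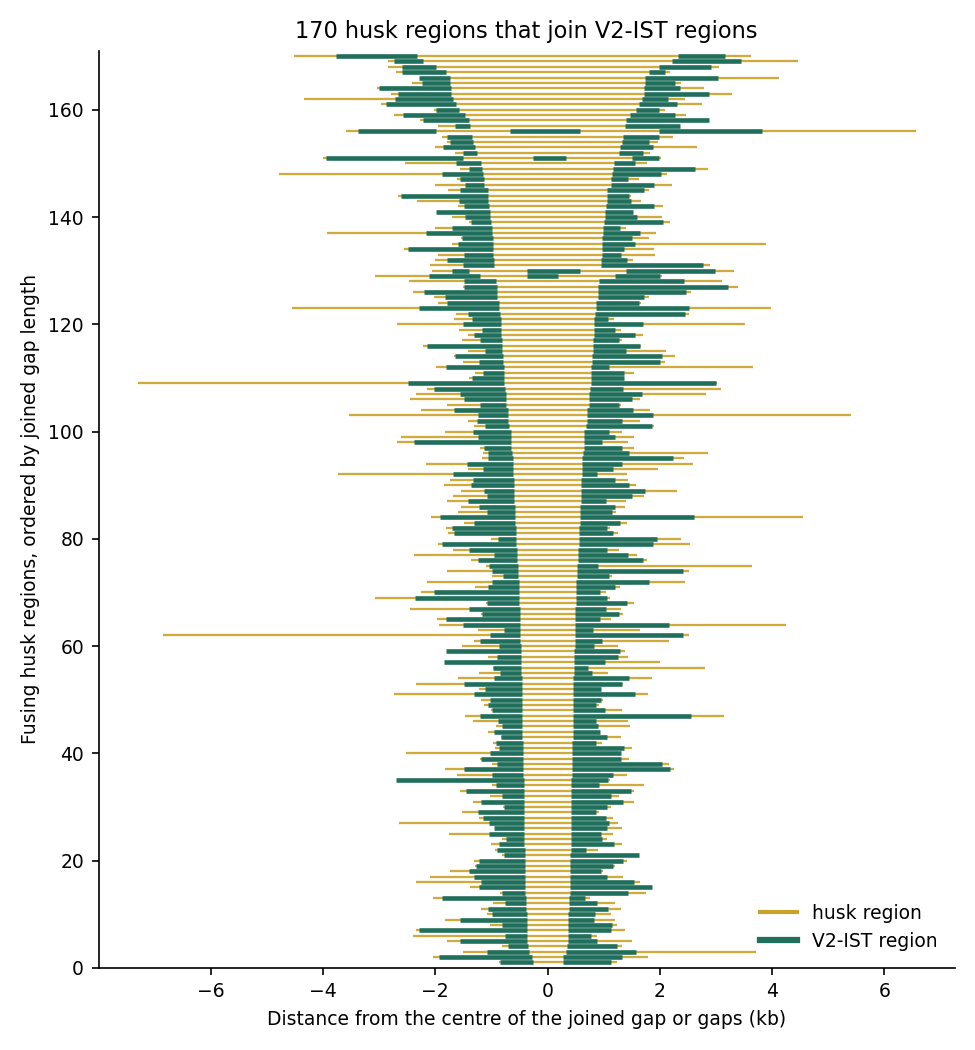
Each row is 1 of the 170 fusing husk regions, drawn as a thin line with its V2-IST regions as thick bars, against the distance in kb from the centre of the joined gap or gaps. Rows are ordered by joined gap length, and the uncovered centre widens from 534 bp at the bottom to 4653 bp at the top, while most husk regions end close to the outer ends of their V2-IST regions.

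There were 174 bridged gaps. The shortest was 534 bp, the lower quartile 886 bp, the median 1142 bp (1028 to 1250), the upper quartile 1714 bp and the longest 4653 bp. In 69 cases (39.7%) the gap was under 1000 bp, and in 30 (17.2%) it was 2000 bp or more. Most gaps were long against the regions that flanked them, since 124 of 174 (71.3%) were longer than both flanking V2-IST regions and 13 (7.47%) were shorter than both. Measured between centres, fused neighbours lay a median of 1983 bp apart, with a range of 1129 to 5790 bp.

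Whether a V2-IST gap was closed in husk went with its width. No neighbouring V2-IST regions anywhere in the list were closer than 534 bp. All 21 gaps under 818 bp were bridged by a husk region, and the narrowest gap that was not bridged measured 818 bp. From 800 to 1000 bp, 50 of 59 neighbours were joined (84.7%, 73.5 to 91.8%). From 1000 to 1500 bp the count was 46 of 104 (44.2%, 35.1 to 53.8%), and from 1500 to 2000 bp it was 29 of 120 (24.2%, 17.4 to 32.6%). The share fell further to 19 of 274 (6.93%) between 2000 and 3000 bp and to 11 of 636 (1.73%) between 3000 and 5000 bp. None of 15948 neighbours more than 5000 bp apart were joined, which allows a share of up to 0.0241%. Taken over neighbours up to 1 kb apart, 69 of 78 were joined (88.5%, 79.5 to 93.8%).

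**Figure D2:**
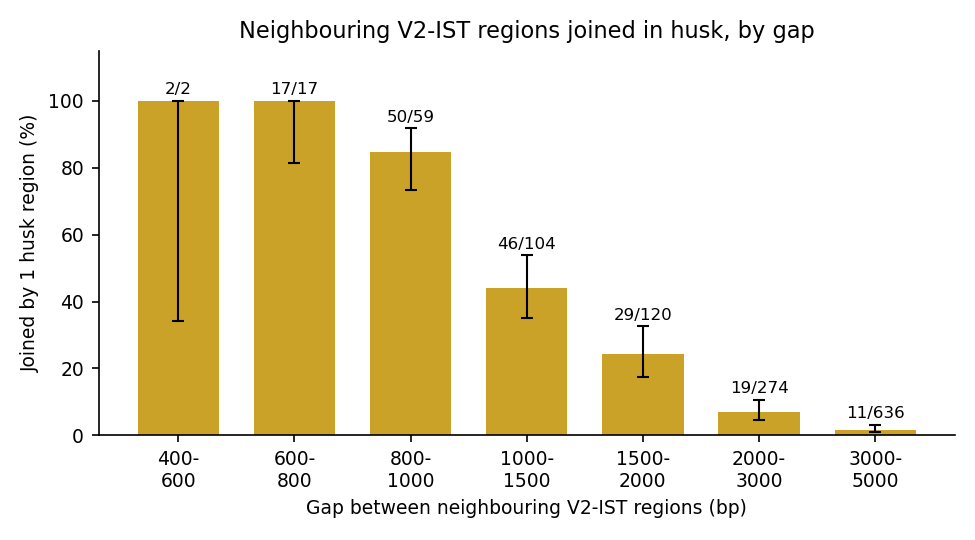
Bars give the share of neighbouring V2-IST regions joined by 1 husk region, in percent, for each class of gap length in bp, with 95% Wilson intervals and the counts above each bar. The share drops from 17 of 17 at 600 to 800 bp to 11 of 636 at 3000 to 5000 bp.

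The 9 unbridged gaps under 1 kb were of different kinds. At 6 of them husk had a region at only 1 of the neighbours, so the other V2-IST region had no husk counterpart. At chr3:152137606-152139876, for instance, the V2-IST regions of 583 and 870 bp were separated by 818 bp, and husk had a region at the first only. The remaining 3 had 2 husk regions. In 1 of these, at chr2:222099037-222102411, the V2-IST gap of 914 bp narrowed to 840 bp in husk. At chr3:210369175-210372036 it widened from 858 to 949 bp, and at chr5:178631067-178633572 from 987 to 1193 bp.

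Neighbours that stayed separate kept most of the distance between them in husk. Among the 926 neighbours 800 to 5000 bp apart that each had a husk region of their own, a median of 86.42% of the V2-IST gap (quartiles 72.51 and 92.88%) was left between the husk regions. At least 80% was left at 591 of them (63.8%), under 50% at 65 (7.02%), and at 33 (3.56%) the gap was wider in husk. The smallest gap left was 597 bp. These are distances between the husk regions that overlap the neighbours, and husk regions lying between those were not looked for. The closest husk neighbours lay 118 bp apart, but 11 of 27994 husk neighbours were closer than the 534 bp that separated the closest V2-IST neighbours. Few gaps shorter than those bridged here were thus listed in husk and none in V2-IST, and what the peak calling and merging contributed to this was not tested.

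**Figure D3:**
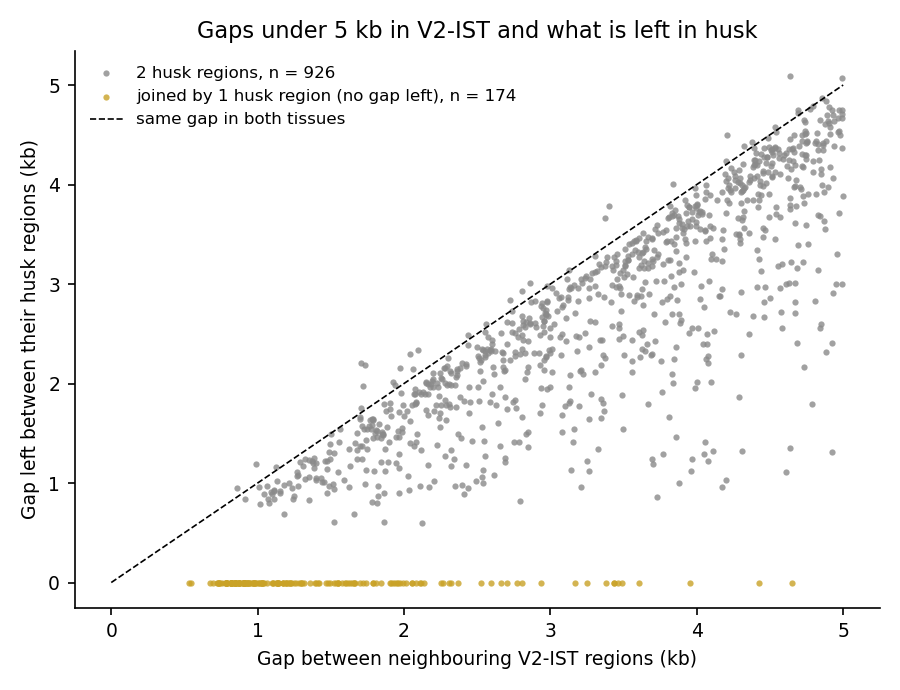
Each point is a pair of neighbouring V2-IST regions under 5 kb apart that both overlap a husk region, with the V2-IST gap on the x axis and the gap left between their husk regions on the y axis, both in kb. Husk regions lying between those were not looked for. The 174 joined pairs lie at 0, and most of the 926 separate pairs lie just under the dashed line of equal gaps.

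The length of the flanking regions showed no single order between joined and separate neighbours of like gap. Between 800 and 1000 bp, the longer neighbour of a joined pair had a median of 777 bp (653 to 920), while it measured between 1181 and 1468 bp at the 3 pairs that stayed separate. Between 1000 and 1500 bp, it had a median of 915 bp (800 to 1144), against 723.5 bp (612 to 816) where the neighbours stayed separate, and the intervals overlapped slightly. The shorter neighbour measured 530.5 bp (472 to 571) and 488.5 bp (438 to 545), respectively. Between 1500 and 2000 bp the longer neighbour measured 926 bp (620 to 1338) when joined and 852.5 bp (762 to 980) when separate. Between 2000 and 3000 bp the order was the other way, with 767 bp (519 to 1044) and 837.5 bp (752 to 888). Between 3000 and 5000 bp they were 1150 bp (531 to 1295) for 11 joined pairs and 821 bp (779 to 862) for 561 separate ones. From 1000 bp upwards the intervals overlapped in every class. The longer neighbour was longer in joined pairs in 3 of the 5 classes and shorter in the other two.

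As single regions, the fused V2-IST regions were close in median length to those at one-to-one sites, while their upper part was longer. Their median was 640.5 bp (589 to 708), with quartiles of 482.8 and 938 bp and a range of 240 to 2441 bp. One-to-one sites had a median of 604 bp (599 to 608), with quartiles of 463 and 841 bp. The 95th percentiles were 1650 bp when fused and 1460 bp at one-to-one sites. Regions under 500 bp made up 101 of 344 fused regions (29.4%, 24.8 to 34.4%) and 5010 of 15878 one-to-one regions (31.6%). For the median and for this share, the intervals of the fused and the one-to-one regions overlapped. Within the 166 husk regions that joined a pair, the shorter V2-IST region had a median of 504.5 bp and the longer 873 bp. The median ratio between them was 1.60, and in 48 pairs (28.9%) 1 region was at least 2 times as long as the other. In 83 of 166 pairs at least 1 region was under 500 bp.

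**Figure D4:**
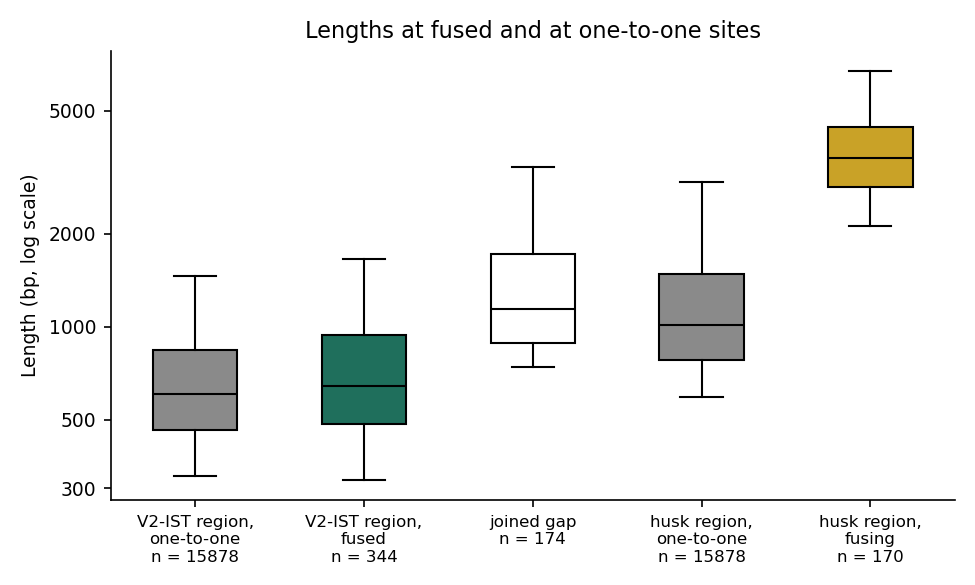
Boxes give the median and quartiles, and whiskers the 5th and 95th percentiles, of lengths in bp on a log scale for V2-IST and husk regions at one-to-one and fused sites and for the joined gaps. The V2-IST boxes have close medians (604 and 640.5 bp), with a higher upper quartile at fused sites (938 against 841 bp). The fusing husk regions (3528 bp) lie above the one-to-one husk regions (1015 bp).

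The husk regions differed more in length. Fusing husk regions had a median of 3528 bp (3284 to 3771), with quartiles of 2831 and 4433 bp and a range of 1818 to 10324 bp, against 1015 bp (1005 to 1026) at one-to-one sites. A husk region has to be long to hold several V2-IST regions, so this difference follows from the way the sites were chosen. Long husk regions were not limited to fused sites. At one-to-one sites, 2630 husk regions (16.6%) were at least as long as the shortest fusing one, and 458 (2.88%) reached the median of the fusing ones. In the class from 1800 to 2800 bp, 41 of 3361 husk regions (1.22%) were fusing. This share was 4.82% (43 of 892) from 2800 to 3500 bp, 8.33% (42 of 504) from 3500 to 4400 bp and 11.8% (44 of 373) from 4400 bp to just above the longest fusing region (10324 bp), with longer husk regions left out. In that last class, husk regions with a single V2-IST region (209) or none (120) outnumbered the fusing ones.

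Among husk regions of like length, fusing ones held more V2-IST bp by median in each of these classes. A larger sum is tied to the rule, because several V2-IST regions were added up and set beside a single region. From 1800 to 2800 bp, the summed V2-IST length had a median of 1122 bp in fusing regions and 972.5 bp in regions with a single V2-IST region. The quartiles overlapped (963 to 1349 bp and 629.8 to 1353 bp). In the last class the medians were 1913 and 1126 bp. The longest member of a fusing region had a median of 685, 736, 924.5 and 1256 bp from the first class to the last. A single V2-IST region had 972.5, 1106, 1158 and 1126 bp, so by median it was the longer except in the last class. With the husk length, both the summed and the longest V2-IST length thus rose at fused sites. The median length of a single V2-IST region also rose, except in the last class.

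Outward of the outermost V2-IST regions, husk regions at fused sites reached slightly further than at one-to-one sites. The median extension per side was 183.5 bp (149 to 214) at fused sites and 142 bp (140 to 144) at one-to-one sites. The longer of the sides extended by 325.5 bp (257 to 456), against 252 bp (247 to 256), and the shorter by 104.5 bp (86 to 118), against 88 bp (87 to 89). Extensions over 1000 bp were found on 36 of 340 sides (10.6%, 7.75 to 14.3%) and on 5.99% of sides at one-to-one sites. Against V2-IST neighbours that stayed separate, the order differed between classes of gap. From 800 to 5000 bp, the outer sides had medians of 182 bp (148 to 215) when joined and 153.5 bp (146 to 162) when separate. These were 257 and 170.5 bp from 1000 to 1500 bp, but 151 and 169 bp from 2000 to 3000 bp. The extensions beside the shorter and the longer member of a pair had overlapping intervals, with a median of 203 bp (151 to 246) beside the shorter member and 156 bp (125 to 208) beside the longer, and the longer extension lay beside the shorter member in 80 of 166 pairs (48.2%, 40.7 to 55.8%).

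V2-IST regions covered a median of 42.73% (38.62 to 46.06) of a fusing husk region, against 62.25% (61.80 to 62.71) at one-to-one sites. This difference is also tied to the rule, since only a fusing region has to hold a gap. The gaps took up a median of 36.14% of a fusing region and the outward parts 14.1%. Of all V2-IST regions in the list, 85.2% lay entirely inside 1 husk region. Among the fused regions the count was 329 of 344 (95.6%, 92.9 to 97.3%), and at one-to-one sites 14303 of 15878 (90.1%). This comparison is tied to the rule, because a V2-IST region between others can only lie inside the husk region that joins them and a longer husk region holds a V2-IST region more easily. The other 15 fused regions reached past an end of their husk region.

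At the edge of the rule there was little doubt about membership. The member with the smallest share inside its husk region was chr3:40083710-40084256, of which 310 of 547 bp (56.67%) lay in chr3:40083947-40085987. The next had 58.22%, 63.75% and 76.63% inside. The smallest overlap of any member was 240 bp, which was the whole of that V2-IST region. Among sites that missed the rule, the nearest additional V2-IST region lay 757 bp outside its neighbour's husk region (chr5:8169944-8171187, beside chr5:8171945-8173089), followed by distances of 796, 842 and 868 bp.

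The 4 husk regions that joined 3 V2-IST regions lay on chromosomes 4, 6 and 7. The longest of them, chr4:32823980-32834125 (10146 bp), held V2-IST regions of 1389, 1240 and 1829 bp with gaps of 1315 and 1415 bp, and reached 2745 bp past the last of them. At chr7:133376520-133382547 (6028 bp) the V2-IST regions measured 2441, 586 and 472 bp and the gaps 1260 and 1175 bp, while husk extended outward by only 54 and 40 bp. Its 2441 bp region was the longest of all 344 members. At chr6:162386088-162391473 (5386 bp) the V2-IST regions measured 303, 938 and 1579 bp, with gaps of 1030 and 824 bp. The fourth, chr4:175840933-175846049 (5117 bp), held regions of 902, 555 and 800 bp with gaps of 833 and 1016 bp. All 8 gaps at these loci fell between 824 and 1415 bp, and the outward extensions ranged more widely than the gaps did.

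The extremes of the set show how different the fused sites were. The longest fusing husk region was chr5:220393239-220403562 (10324 bp), with V2-IST regions of 1721 and 2228 bp and a gap of 1538 bp. Most of its added length lay on a single side, where husk extended by 4810 bp, against 27 bp on the other. An even longer extension of 5824 bp was seen at chr2:193720596-193729955, beside a V2-IST region of 535 bp. The shortest fusing husk region, chr9:127012427-127014244, measured 1818 bp and held regions of 483 and 284 bp with a gap of 819 bp. The narrowest gap (534 bp) lay between regions of 574 and 856 bp in chr4:137666209-137668314. The widest (4653 bp) lay between regions of 1440 and 835 bp in chr6:150158479-150166604, so that gap alone exceeded the V2-IST length at that site. The shortest member, chr1:32361237-32361476 (240 bp), was joined across 2318 bp to a region of 1466 bp.

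Coverage by V2-IST ranged from 18.73 to 76.57% of a fusing husk region. It was highest at chr1:61897275-61901060, where regions of 2271 and 656 bp were 854 bp apart. It was lowest at chr9:25256352-25261087, where regions of 518 and 369 bp were 1062 bp apart and husk extended by 2747 bp on a single side.

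**Figure D5:**
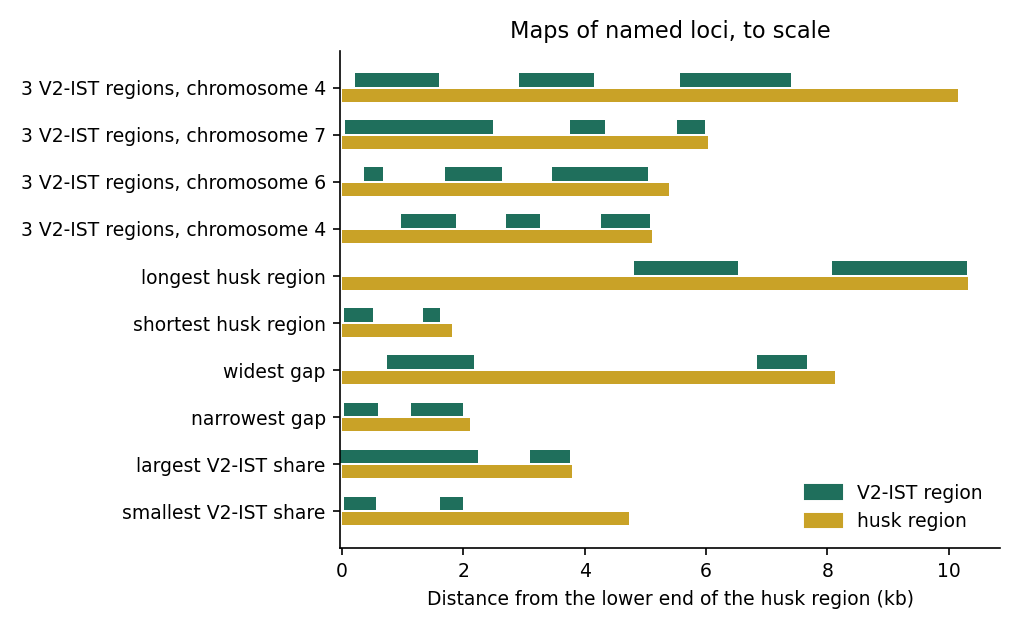
Husk regions (lower bars) and their V2-IST regions (upper bars) at 10 named loci, to scale, against the distance in kb from the lower end of the husk region. The gaps at the 4 loci with 3 V2-IST regions lie between 824 and 1415 bp, and the longest husk region carries a 4810 bp extension at its lower end.

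Fused sites were found on all 10 chromosomes. The share of V2-IST regions that were fused was lowest on chromosome 4 (24 of 1764, 1.36%, 0.916 to 2.02%) and highest on chromosome 9 (40 of 1305, 3.07%, 2.26 to 4.15%). Those intervals did not overlap, but the 2 chromosomes were picked as the extremes, and the intervals of the other 8 chromosomes overlapped that of chromosome 9 or that of chromosome 4. Among neighbours under 2 kb apart, husk joined 16 of 23 on chromosome 9 (69.6%, 49.1 to 84.4%) and 13 of 30 on chromosome 4 (43.3%, 27.4 to 60.8%), with overlapping intervals.

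Fused sites lay near chromosome ends more often than one-to-one sites did, although most lay elsewhere, and their surroundings were denser. Of all husk regions, 31.3% lay in the outer 10% of a chromosome at either end, and of the fusing ones 72 of 170 did (42.4%, 35.2 to 49.9%), against 31.7% (30.9 to 32.4%) at one-to-one sites. A fusing husk region had a median of 12 other V2-IST regions within 500 kb (11 to 13), against 9 at one-to-one sites, and its nearest other husk region was 7870 bp away (6392 to 11238), against 15170 bp (14552 to 15869). Another husk region lay within 2 kb of 23 of them (13.5%, 9.19 to 19.5%), and of 7.99% of one-to-one husk regions. A site with several V2-IST regions needs close neighbours, so density is tied to the rule. Of all 302 V2-IST neighbours under 2 kb apart, joined or not, 119 lay in the outer 10% of a chromosome. Among these 302, the shares joined near chromosome ends and elsewhere had overlapping intervals. Husk joined 58 of 119 in the outer 10% (48.7%, 39.9 to 57.6%) and 86 of 183 elsewhere (47.0%, 39.9 to 54.2%).

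The closest fusing husk regions, chr5:5728427-5733179 and chr5:5757961-5763122, were 24781 bp apart, and the next closest were 142567 bp apart. A further V2-IST region that was not fused lay within 5 kb of 26 of 170 fusing regions (15.3%, 10.7 to 21.5%), against 13.1% at one-to-one sites.

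To place the sites against genes, positions of 826 genes and 1495 enhancer candidates that the study lists on AGPv4 were used for identity only. The gene list holds only those neighbours of candidates that met the study's expression criteria for a target gene. It is no annotation of the genome, so a site without a listed gene is not shown to lack one. Listed genes overlapped 15 of 170 fusing husk regions, with 1 gene at each. The share over all husk regions was not counted, so whether 15 is many or few was not tested. Of these genes, 8 ran across every V2-IST region and the gap between them, and 4 of the 8 spanned the whole husk region. The other 7 overlapped only 1 of the V2-IST regions. The start of the gene lay in a V2-IST region at 7 sites, in the gap at 2, in the outward part of the husk region at 1 and outside the husk region at 5.

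At the longest fusing husk region, gene Zm00001d018421 started in the first V2-IST region and ran through the gap and the other V2-IST region, while the 4810 bp extension lay upstream of it. Zm00001d012970 likewise started in a V2-IST region and crossed the gap, at chr5:2554671-2558135, where V2-IST regions of only 245 and 435 bp were joined across 2529 bp. Zm00001d038302, on the minus strand, started in the V2-IST region at the higher end of chr6:153953238-153956440 and crossed a gap of 1356 bp. At chr4:175840933-175846049, Zm00001d051981 overlapped all 3 V2-IST regions and both gaps, with its start outside the husk region. The 4 genes that spanned the whole husk region were Zm00001d028565, Zm00001d010869, Zm00001d024531 and Zm00001d026398, at gaps of 1173, 820, 1954 and 1176 bp. At these 8 sites the bridged gap was a stretch within a listed gene.

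At the other sites the gap lay wholly or in part outside the listed gene. Zm00001d045519 started in the gap of the least covered husk region, on chromosome 9, 296 bp before the V2-IST region it ran into. Zm00001d027430 started in a gap of 3253 bp at chr1:5106696-5112409, 38 bp before the V2-IST region. Zm00001d006330 and Zm00001d039628 each started in a V2-IST region and ran away from the gap. Zm00001d027903 started in a V2-IST region and ran 421 bp into a gap of 1743 bp, and Zm00001d002364 ran 40 bp into a gap of 1402 bp. At all 4 of these sites the other V2-IST region lay outside the listed gene. Zm00001d021876 started in the outward part of chr7:165264265-165266760 and overlapped the first V2-IST region only.

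Enhancer candidates, which the study chose partly on H3K9ac in these tissues, are not independent of the lists. They overlapped 8 of 170 fusing husk regions (4.71%, 2.40 to 9.01%), against 4.91% of all husk regions and 2.85% (2.60 to 3.12%) at one-to-one sites, so the fusing regions were close to the share over all husk regions. Of the 8, 3 were listed as shared by the tissues, 3 as specific to husk and 2 as specific to V2-IST. The shared candidate V89/H785 overlapped all 3 V2-IST regions at the chromosome 7 site. The shared candidates V229/H419 and V368/H66 each overlapped 1 V2-IST region and reached 376 and 347 bp into gaps of 1743 and 1103 bp, respectively. The husk-specific candidates H125, at the longest fusing region, and H696, at chr2:10902360-10911292, lay in outward extensions and overlapped no V2-IST region. The third, H15, overlapped a V2-IST region of 530 bp and reached 34 bp into a gap of 1196 bp at chr10:87316559-87320403. The V2-IST-specific candidates V286 and V88 each overlapped 1 of the V2-IST regions, which at both sites lay in a husk region as well.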

How the data were processed

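H3K9ac ChIP-seq regions of 2 V2-IST and 3 husk replicates were used, with inputs as controls. The submitters' processing notes name BWA, SAMtools and MACS2 (versions not given in the sources used here) and B73 RefGen_v4. The authors called peaks per replicate against input, kept those that largely overlapped between replicates and combined them. Each combined region was deposited as a start and an end in bp, which were read as BED with a start counted from 0 and printed counted from 1. No signal or score was in the lists, and 0 columns were without a sample. Signal tracks were not analysed here.

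Overlaps of at least 1 bp were counted in Python 3.11.15, using numpy 2.4.6 and scipy 1.17.1, and figures were drawn with matplotlib 3.10.9. The counts were checked against bedtools 2.31.1, which gave the same number of V2-IST regions for 28004 of 28004 husk regions, and tested on simulated data, where all planted fusions were found in 20 of 20 pairs of lists. Neighbours are adjacent V2-IST regions on a chromosome, and a negative extension means that a V2-IST region reached past the husk region. The outer 10% of a chromosome was measured up to the last listed region. Medians carry order-statistic intervals and shares Wilson intervals at 95%, over regions. No test was run, because the coordinates chose the members and each tissue has 1 combined list.

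Members, classes and alternatives were chosen with earlier results of these data known. Loci are named by a rule: husk regions with 3 V2-IST regions, the extremes of length, gap and coverage, the sites nearest the overlap rule, and those with listed genes or candidates. The longest outward extension, the closest sites and the unbridged gaps under 1 kb were named after their values were seen. Gene and candidate positions come from the study's supplementary tables and served only to say what lies at a site. Alternatives were a stricter overlap (100 bp, or 50% of the V2-IST region), joining regions up to 200 bp apart, a minimum length of 500 bp and means in place of medians. No genome sequence or full annotation on AGPv4 was used here.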

Additional observations from a re-analysis of the deposited data

How the results depend on the processing

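Requiring 100 bp of overlap, requiring 50% of the V2-IST region inside, and joining husk regions up to 200 bp apart each left all 7 results identical (344 fused regions, 170 fusing husk regions, and the medians and shares given for them). The stricter overlaps could change nothing, since every member shared at least 240 bp and 56.67% of its length with its husk region. Nor could joining V2-IST regions up to 200 bp apart, since none were closer than 534 bp. Joining husk regions could not alter the fusing ones either, since their nearest other husk region lay at least 689 bp away. It had little room to add any, since none of the 7 husk gaps under 400 bp had separate V2-IST regions on both sides. Keeping only regions of at least 500 bp lowered the counts to 176 fused V2-IST regions and 87 fusing husk regions by construction, since 83 of 166 pairs held a shorter region. No fusing husk region was itself that short (shortest 1818 bp), so the median fusing husk length of 3952 bp is that of the 87 that remained. Why these were longer was not tested. The median gap stayed at 1142 bp, and 85.37% of neighbours up to 1 kb apart were joined. Means in place of medians gave a gap of 1432 bp, a husk length of 3856 bp and an outward extension of 409.2 bp per side. Mean coverage was 42.33%.

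The lists carry no depth, signal or replicate, so no replicate was left out, and the part of depth and of the peak calling in the fusion was not tested. No paired analysis was possible because each list combines its replicates. Genes and candidates were placed from partial lists only.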

Other observations

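The reverse arrangement, a V2-IST region that spans several husk regions, was seen at 2 of 17170 V2-IST regions. By comparison, 170 of 28004 husk regions joined V2-IST regions. Husk regions were also longer at one-to-one sites (median 1015 against 604 bp), and the part of length in this was not tested. At chr1:6908948-6914203, a V2-IST region of 5256 bp overlapped husk regions of 2633 and 3043 bp that were 814 bp apart. At chr1:51816549-51818351, a V2-IST region of 1803 bp overlapped husk regions of 643 and 688 bp that were 869 bp apart. Neither V2-IST region was a member of the fused set.

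Close husk neighbours were more numerous than close V2-IST neighbours, with 347 up to 1 kb apart in husk against 78 in V2-IST. Of the 347, 2 were joined by a V2-IST region, 49 had a V2-IST region each, 170 had a V2-IST region at only 1 of the neighbours and 126 at neither. By comparison, husk joined 69 of the 78 V2-IST neighbours. The lists differ in size (28004 and 17170 regions) and in the number of replicates combined, and what these contributed was not tested.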
